A study of Homo sapiens with 9 samples.

Results

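LGR5 and 9 other genes of the Wnt feedback circuit (LGR4, LGR6, RNF43, ZNRF3, AXIN2, NKD1, TCF7, LEF1 and DKK1) were followed in the OVCAR4 RNA-seq data, as 10 of the 58735 genes of the count table. The set was chosen by its place in the pathway and by LGR5, which was picked because its transcript was among those that differed most between MPZL3 knockdown and control. The differences of LGR5 from control are therefore values that chose it and are given without a test. Of the 10 genes, 8 passed the filter on low counts. LEF1 and DKK1 did not.

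OVCAR4 is an established human line of high-grade serous ovarian cancer. The cells received, by lentivirus, either a scramble shRNA (scr control) or an shRNA against MPZL3, a transmembrane protein with an immunoglobulin domain, namely shMPZL3 #1 or shMPZL3 #2. All 9 cultures were selected with puromycin for 3 days, so that the controls also carried a vector and the drug. Each of the 3 groups had 3 biological replicates, and the question was how depletion of MPZL3 changes the transcripts of the cells.

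In the canonical Wnt pathway, ligands bind Frizzled and LRP5 or LRP6, beta-catenin escapes destruction, and it acts in the nucleus with the TCF and LEF factors. RNF43 and ZNRF3 are membrane E3 ligases that remove Frizzled from the surface, and R-spondins bound to LGR4, LGR5 or LGR6 clear these ligases, which sensitizes the cell to Wnt. Several of the genes are themselves switched on by beta-catenin and feed back on the signal, among them AXIN2, NKD1, DKK1, RNF43 and ZNRF3, and LGR5 is a well-known marker of Wnt-dependent stem cells.

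Promoters are shown for LGR4, TCF7 and DKK1, from the genes that the RefSeq table of start sites (GRCh38.p14) held. Each is given as the 250 bases before the start site, 5′ to 3′ on the strand of the gene. The table had 10 start sites for 6 of the genes, LGR4, LGR6, RNF43, TCF7, LEF1 and DKK1. Matches to a TCF/LEF motif, searched on both strands as CTTTG followed by AT, AA, TT or TA, are in capitals. LGR4 is shown as a transcript that fell, with its window at chr11:27472791-27473040 on the minus strand. TCF7 is shown with its second start site at chr5:134123368-134123617 on the plus strand, and DKK1, whose transcript was not seen, at chr10:52314031-52314280 on the plus strand.
LGR4: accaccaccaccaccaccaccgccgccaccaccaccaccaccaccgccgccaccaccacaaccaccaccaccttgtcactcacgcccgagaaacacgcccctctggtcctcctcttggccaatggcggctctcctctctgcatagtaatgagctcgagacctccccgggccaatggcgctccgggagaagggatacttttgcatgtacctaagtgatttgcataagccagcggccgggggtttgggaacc
TCF7: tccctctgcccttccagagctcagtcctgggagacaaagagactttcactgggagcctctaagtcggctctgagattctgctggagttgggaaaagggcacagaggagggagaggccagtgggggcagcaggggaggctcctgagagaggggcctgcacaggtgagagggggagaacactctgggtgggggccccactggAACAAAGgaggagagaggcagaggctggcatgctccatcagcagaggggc
DKK1: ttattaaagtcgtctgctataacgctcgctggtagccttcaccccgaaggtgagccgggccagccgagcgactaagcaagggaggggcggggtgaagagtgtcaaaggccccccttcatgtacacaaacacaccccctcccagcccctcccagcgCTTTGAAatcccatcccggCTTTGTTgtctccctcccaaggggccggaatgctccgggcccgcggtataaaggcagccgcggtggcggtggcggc
Of the 10 start sites, 2 held a match, and both are among those shown. The match before the second start site of TCF7 began 50 bases upstream of it, read on the opposite strand. The first start site of TCF7 held no match. DKK1 had 2 matches, 95 and 76 bases upstream. In 35116 promoters of the same length 12.0% held at least 1 match to any of the 4 motifs and 1.21% held 2 or more. A match is a description of the letters in the window, and DKK1 held 2 matches with no read in any library.

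MPZL3, the target of the shRNAs (chromosome 11, 118226690 to 118252350, minus strand), was checked before the other genes. Its normalized read counts (counts divided by the TMM-scaled library size and multiplied by the mean scaled size of the 9 libraries) were 536, 611 and 587 in the scr control libraries, 119, 143 and 123 with shMPZL3 #1, and 284, 380 and 271 with shMPZL3 #2. All 6 knockdown libraries were below all 3 controls, and the depletion was deeper with shMPZL3 #1. The log2 fold change was -2.17 ± 0.16 (SE) for shMPZL3 #1 and -0.89 ± 0.15 for shMPZL3 #2 (edgeR quasi-likelihood test, adjusted p = 3.73e-07 and 0.000562), and the hairpins differed by 1.28 ± 0.16 (adjusted p = 5.72e-05).

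Total counts were 15040102 to 27835841 per library. Of the markers of ovarian carcinoma and epithelium, PAX8 (4605 to 6174 normalized counts), EPCAM and the keratins KRT7, KRT8 and KRT18 were high in every library, while WT1 had at most 12.9 and MSLN at most 75.2. Among 10 markers of immune, endothelial, fibroblast and mesothelial cells, MS4A1 and DCN were at 0 and CD3E and CD68 at most at 3.01, with PECAM1 at most at 14.2, CALB2 at 4.73 and PTPRC at 26.4. Others were present, namely UPK3B, a uroplakin of mesothelium and urothelium, at 1612 to 3643, the fibroblast gene LUM at 72.6 to 323 and the endothelial gene VWF at 74.1 to 128. The summed level of the 10 markers was 2728 to 2856 in scr control, 1910 to 2592 with shMPZL3 #1 and 2730 to 4004 with shMPZL3 #2, and its part in the differences below was not tested.

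LGR5 (ENSG00000139292, chromosome 12, 71439770 to 71586310, plus strand) encodes a receptor for R-spondins. Its normalized counts were 920, 580 and 423 in scr control, 409, 183 and 137 with shMPZL3 #1, and 222, 56.8 and 43.6 with shMPZL3 #2. Every knockdown library lay below every control library, although the lowest control and the highest shMPZL3 #1 library were close, and the hairpins overlapped. Within each group the library numbered 1 was the highest, which was also so for 1002 of the 16928 genes tested (5.92%), ZNRF3 among them.

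The difference from control came to a log2 fold change of -1.87 ± 0.49 (SE) over the 6 knockdown libraries, -1.40 ± 0.45 for shMPZL3 #1 and -2.60 ± 0.48 for shMPZL3 #2. The grouped value was the lowest of 11916 protein-coding genes whose mean log2 CPM was 1 or more, and number 14 from the bottom of all genes tested. In the same order of protein-coding genes LGR5 was number 22 from the bottom with shMPZL3 #1, where MPZL3 itself lay lower, and the lowest with shMPZL3 #2. Among all genes tested LGR5 was number 170 from the bottom with shMPZL3 #1 and number 9 with shMPZL3 #2. Without the replicate 1 library of shMPZL3 #2, the value for that hairpin was -3.68. In whole cultures, fewer LGR5-expressing cells and less LGR5 RNA per cell cannot be told apart.

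The comparison of the hairpins did not choose LGR5 and was tested. LGR5 was 2.31-fold lower with shMPZL3 #2, at a log2 difference of -1.21 ± 0.48 (95% interval -2.22 to -0.20), which did not pass the test (edgeR, adjusted p = 0.10). MPZL3 itself was 2.43-fold higher with shMPZL3 #2, so the hairpin with more MPZL3 left had the lower LGR5 mean (107 ± 99.2 against 243 ± 146, SD, n = 3). The call changed with the settings. With all libraries kept, LGR5 was called lower with shMPZL3 #2 with no filter on low counts (edgeR adjusted p = 2.75e-10) and with the replicate number as a block (-1.30, 3.75e-05). Without the replicate 1 library of shMPZL3 #2 the difference was -2.29 (0.00297), and without the replicate 1 library of shMPZL3 #1 it was -0.61 (0.447). The labels do not say that a number marks a shared culture or day.

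**Figure D1:**
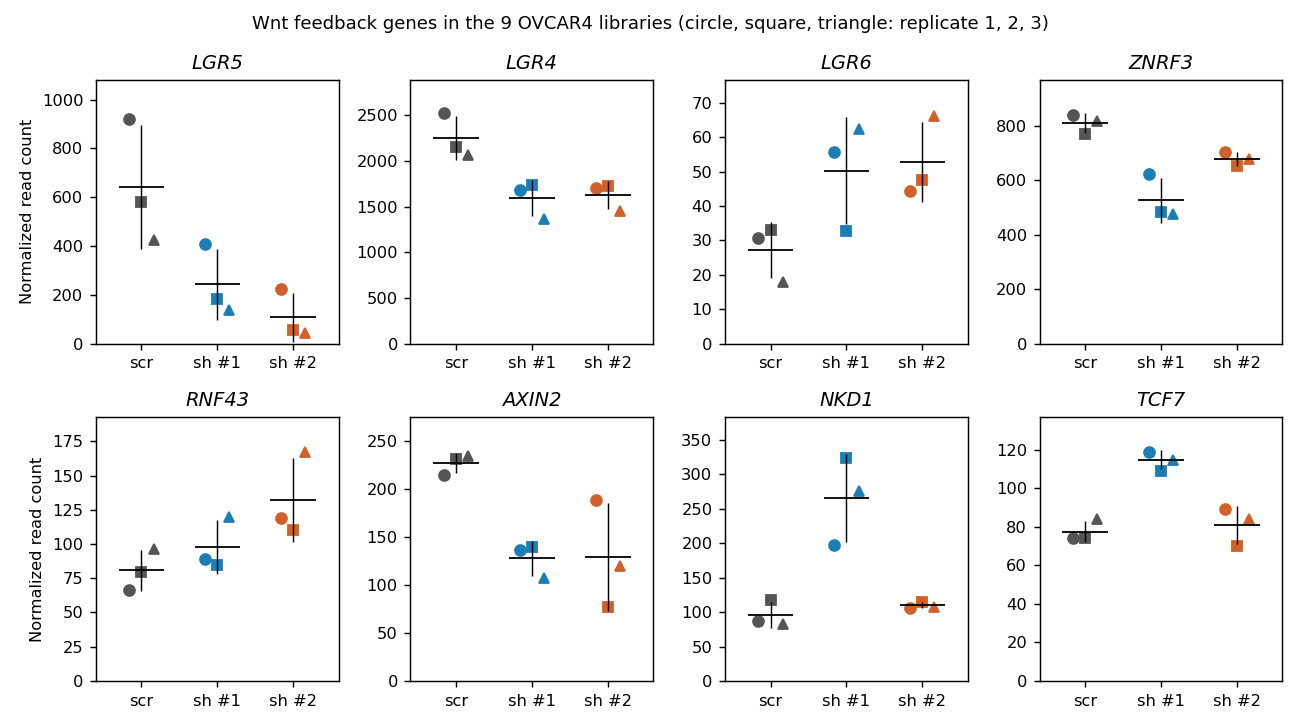
Normalized read counts (y axis, from 0, a scale of its own for each gene) of the 8 genes that passed the filter in each of the 9 libraries, by group on the x axis, with replicate 1, 2 and 3 as circle, square and triangle, the mean as a horizontal line and the SD as a vertical line. LGR5 lies at 423 to 920 in scr control and at 43.6 to 222 with shMPZL3 #2, NKD1 stands apart with shMPZL3 #1 alone, and AXIN2 has a wide spread with shMPZL3 #2.

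Each gene in the panels by library is plotted on its own scale, so the panels compare libraries and not genes.

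LGR4 (chromosome 11, 27365961 to 27472775, minus strand) is the most widely expressed of the R-spondin receptors and was the most abundant here. It had 2524, 2151 and 2071 normalized counts in scr control, 1682, 1734 and 1366 with shMPZL3 #1, and 1709, 1724 and 1451 with shMPZL3 #2. All 6 knockdown libraries were below all controls, and the hairpins covered nearly the same range. LGR4 fell 1.40-fold in the grouped comparison (log2 fold change -0.48 ± 0.11, edgeR adjusted p = 0.0108), and by log2 changes of -0.50 ± 0.12 with shMPZL3 #1 (adjusted p = 0.00371) and -0.47 ± 0.12 with shMPZL3 #2 (adjusted p = 0.0116).

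Between the hairpins LGR4 differed by 0.03 ± 0.12 (interval -0.21 to 0.27, edgeR adjusted p = 0.898). Leaving out scr control replicate 1 ended the grouped call (adjusted p = 0.0899), and the shMPZL3 #2 call without that library or shMPZL3 #2 replicate 3 (0.0725 and 0.0967).

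LGR6 (chromosome 1, 202193901 to 202319781, plus strand), the remaining receptor of the family, was scarce. It had 30.6, 33.0 and 17.9 normalized counts in scr control, 55.8, 32.8 and 62.4 with shMPZL3 #1, and 44.5, 47.7 and 66.1 with shMPZL3 #2. Its mean was higher with either hairpin, and the replicate 2 library of shMPZL3 #1 lay within the control range. The grouped log2 difference of 0.91 ± 0.31 did not pass the test (edgeR adjusted p = 0.058), nor did 0.87 ± 0.34 for shMPZL3 #1 (0.0603) and 0.95 ± 0.34 for shMPZL3 #2 (0.0702).

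The LGR6 calls changed with the settings. DESeq2 called the grouped difference (adjusted p = 0.0406), as did edgeR without shMPZL3 #1 replicate 2 (0.0359), and the range over all settings was 0.0343 to 0.221. The hairpins differed by 0.07 ± 0.32 (interval -0.59 to 0.74).

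Set per length (CPM per kilobase of the deposited gene length), LGR4 supplied 68.6% to 79.4% of the summed level of LGR4, LGR5 and LGR6 in the scr control libraries and LGR5 19.6% to 30.2%. With shMPZL3 #1 the LGR5 share was 10.2% to 21.9%, and with shMPZL3 #2 it was 3.3% to 13.1%. LGR6 made up 0.949% to 1.58% in scr control and 2.27% to 5.74% in the knockdown libraries. These shares contain the LGR5 values that chose the gene and are a description.

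ZNRF3 (chromosome 22, 28883592 to 29057487, plus strand), the more abundant of the Frizzled-removing ligases, had 840, 771 and 818 normalized counts in scr control, 622, 482 and 475 with shMPZL3 #1, and 704, 653 and 680 with shMPZL3 #2. All knockdown libraries were below all controls, and all shMPZL3 #1 libraries were below all shMPZL3 #2 libraries. ZNRF3 fell 1.54-fold with shMPZL3 #1 (log2 -0.62 ± 0.12, edgeR adjusted p = 0.000917), a call that held under every setting (adjusted p 3.81e-05 to 0.00655). With shMPZL3 #2 the difference of -0.25 ± 0.12 did not pass (adjusted p = 0.167).

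Grouped, ZNRF3 fell 1.34-fold (log2 -0.43 ± 0.14, edgeR adjusted p = 0.048). This call lay at the threshold and was lost without any 1 of 7 libraries, the 3 scr control, the 3 shMPZL3 #1 and shMPZL3 #2 replicate 3 (adjusted p 0.0505 to 0.179). The hairpins differed by 0.37 ± 0.12, with the higher level under shMPZL3 #2 (edgeR adjusted p = 0.0474), and this too was lost without any 1 library other than shMPZL3 #1 replicate 1 (0.051 to 0.164).

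RNF43 (chromosome 17, 58352500 to 58417595, minus strand), the partner ligase of ZNRF3, had 66.5, 79.2 and 96.2 normalized counts in scr control, 88.8, 84.5 and 120 with shMPZL3 #1, and 119, 110 and 167 with shMPZL3 #2. The shMPZL3 #2 libraries were all above the controls, and those of shMPZL3 #1 overlapped both. RNF43 rose 1.64-fold with shMPZL3 #2 (log2 0.72 ± 0.23, edgeR adjusted p = 0.0447). With shMPZL3 #1 the difference was 0.28 ± 0.23 (adjusted p = 0.392), grouped it was 0.51 ± 0.24 (0.156), and between the hairpins 0.44 ± 0.22 (0.206).

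The RNF43 call was lost without any 1 of 5 libraries, the 3 scr control and shMPZL3 #2 replicates 1 and 3 (adjusted p 0.0515 to 0.235). ZNRF3 and RNF43 thus differed from control in opposite directions in the means of both hairpins, and for neither hairpin did both pass the test.

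AXIN2 (chromosome 17, 65528563 to 65561647, minus strand) encodes a scaffold of the beta-catenin destruction complex and is among the most general beta-catenin targets. It had 215, 231 and 235 normalized counts in scr control, 137, 140 and 107 with shMPZL3 #1, and 189, 77.1 and 120 with shMPZL3 #2. The controls were tight and above all knockdown libraries, while the shMPZL3 #2 libraries spread widely. AXIN2 fell 1.77-fold grouped (log2 -0.82 ± 0.22, edgeR adjusted p = 0.0244), with -0.83 ± 0.24 for shMPZL3 #1 (0.0146) and -0.82 ± 0.24 for shMPZL3 #2 (0.029).

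The hairpins differed in AXIN2 by 0.01 ± 0.24 (interval -0.51 to 0.52, edgeR adjusted p = 0.99). The grouped call was lost without any 1 of the 3 scr control libraries (adjusted p 0.0817 to 0.0891), the shMPZL3 #1 call without shMPZL3 #1 replicate 3 (0.0694), and the shMPZL3 #2 call without any 1 scr control library or shMPZL3 #2 replicate 2 or 3 (0.0624 to 0.12).

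NKD1 (chromosome 16, 50548330 to 50649249, plus strand), an antagonist that binds Dishevelled, behaved differently under the hairpins. It had 86.4, 117 and 82.5 normalized counts in scr control, 198, 324 and 276 with shMPZL3 #1, and 106, 115 and 108 with shMPZL3 #2. All shMPZL3 #1 libraries were above all others, and the shMPZL3 #2 libraries lay within the control range. NKD1 rose 2.76-fold with shMPZL3 #1 (log2 1.47 ± 0.21, edgeR adjusted p = 7.2e-05), while with shMPZL3 #2 the difference was 0.19 ± 0.21 (interval -0.26 to 0.64, adjusted p = 0.592).

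The test between the hairpins gave NKD1 2.42-fold lower with shMPZL3 #2 (log2 -1.28 ± 0.20, edgeR adjusted p = 0.000459). Both calls held under every setting, with adjusted p-values of 5.24e-11 to 0.000647 for shMPZL3 #1 against control and 1.83e-08 to 0.00341 between the hairpins. The grouped difference of 0.97 ± 0.37 did not pass (adjusted p = 0.0898), but DESeq2 called it (0.0269).

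TCF7 (chromosome 5, 134114711 to 134151865, plus strand) encodes TCF-1, a DNA-binding partner of beta-catenin. It had 74.5, 74.5 and 83.9 normalized counts in scr control, 119, 109 and 115 with shMPZL3 #1, and 89.1, 70.0 and 84.2 with shMPZL3 #2. As with NKD1, the shMPZL3 #1 libraries stood above all others and the shMPZL3 #2 libraries overlapped the controls. TCF7 rose 1.48-fold with shMPZL3 #1 (log2 0.56 ± 0.20, edgeR adjusted p = 0.0388), and the differences with shMPZL3 #2 (0.07 ± 0.20, 0.861), grouped (0.33 ± 0.21, 0.303) and between the hairpins (-0.50 ± 0.19, 0.0952) did not pass.

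The TCF7 call was lost without any 1 of 6 libraries, the 3 scr control and the 3 shMPZL3 #1 (adjusted p 0.0565 to 0.12), and with DESeq2 (0.0686). SKP1 runs antisense to TCF7 and overlaps it. It summed to 49815 counts and TCF7 to 827, and 210 of the 10063 exonic bases of TCF7 were shared. The libraries kept no strand, so reads in the shared bases could not be told apart. SKP1 moved the other way with shMPZL3 #1 (log2 -0.32 ± 0.12, edgeR adjusted p = 0.0466), and the part of SKP1 reads in the TCF7 count was not tested.

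LEF1 (chromosome 4, 108047545 to 108168956, minus strand), a factor of the same family as TCF7, had 4 counts in all, 2 in scr control replicate 1 and 2 in shMPZL3 #1 replicate 2. DKK1 (chromosome 10, 52314296 to 52318042, plus strand), a secreted inhibitor of LRP5 and LRP6, had no count in any of the 9 libraries. Neither could be compared between groups at this depth.

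**Figure D2:**
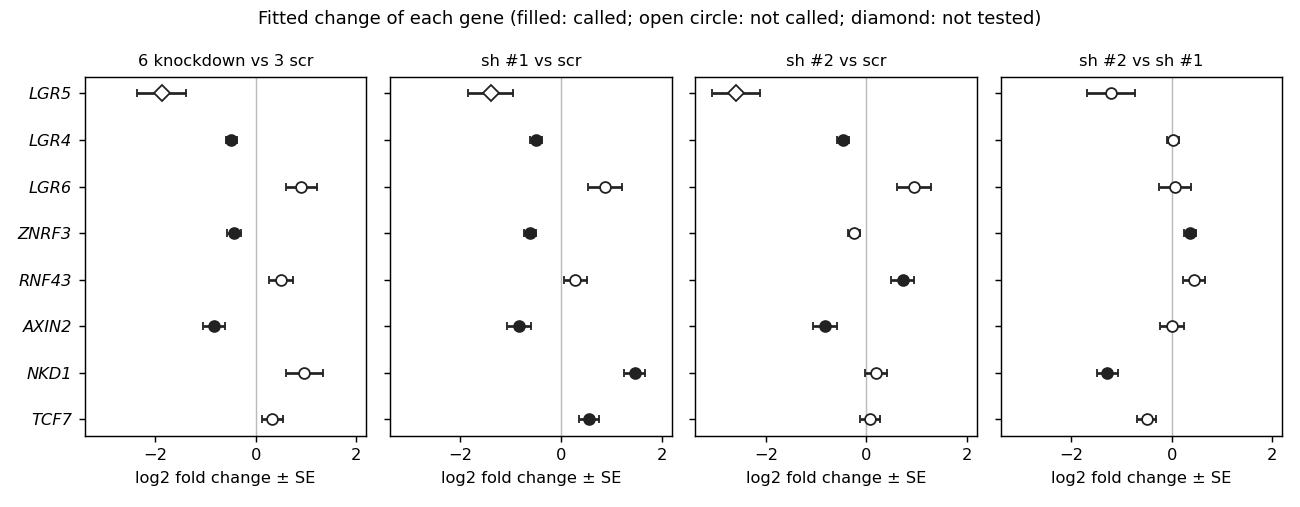
Log2 fold change with its SE (x axis) of the 8 genes (y axis) in each of the 4 comparisons, one panel each. Filled circles were called at an adjusted p under 0.05, open circles were not, and the diamonds of LGR5 mark contrasts that chose it and were not tested. LGR4 and AXIN2 sit at like values for both hairpins, near -0.50 and -0.83, while NKD1 is at 1.47 with shMPZL3 #1 and at 0.19 with shMPZL3 #2.

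The plot of fold changes by comparison gives the same 8 genes side by side. Of the 9 genes other than LGR5, 7 were tested against control. In the grouped comparison 0 of them rose by the edgeR test, where 9.36% of all genes tested did, and 3 fell (LGR4, ZNRF3 and AXIN2), where 6.4% did. At an adjusted p under 0.05 DESeq2 counted 2 that rose. With shMPZL3 #1, 2 rose (NKD1 and TCF7) against a background of 16.8%, and 3 fell (LGR4, ZNRF3 and AXIN2) against 15.3%. With shMPZL3 #2, 1 rose (RNF43) against 9.36%, and 2 fell (LGR4 and AXIN2) against 5.8%. Between the hairpins, where 8 genes were tested, ZNRF3 was higher and NKD1 lower with shMPZL3 #2, and the background was 7.56% in each direction.

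The genes therefore did not move as a block. The median log2 difference of the 7 was 0.33 grouped, 0.28 with shMPZL3 #1 and 0.07 with shMPZL3 #2, beside medians of 0.02, 0.01 and 0.00 over all genes tested. These 3 comparisons share the control libraries, so the values for the hairpins are not independent of each other. LGR4 and AXIN2 were the genes called lower with both hairpins, and no gene of the 7 was called higher with both. Without scr control replicate 1, 0 of the 7 were called in the grouped comparison and 0 with shMPZL3 #2, and without replicate 2 or 3 of the controls it was 1 each. Over all genes the grouped calls went from 2667 to 625, 962 and 1238 without scr control replicate 1, 2 and 3. With shMPZL3 #2 they went from 2567 to 1398, 1579 and 1803. Without shMPZL3 #2 replicate 3, 0 of the 7 were called with that hairpin, and 1366 of all genes. Without shMPZL3 #1 replicate 3, 3 were called with shMPZL3 #1, and all genes called went from 5424 to 3695.

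**Figure D3:**
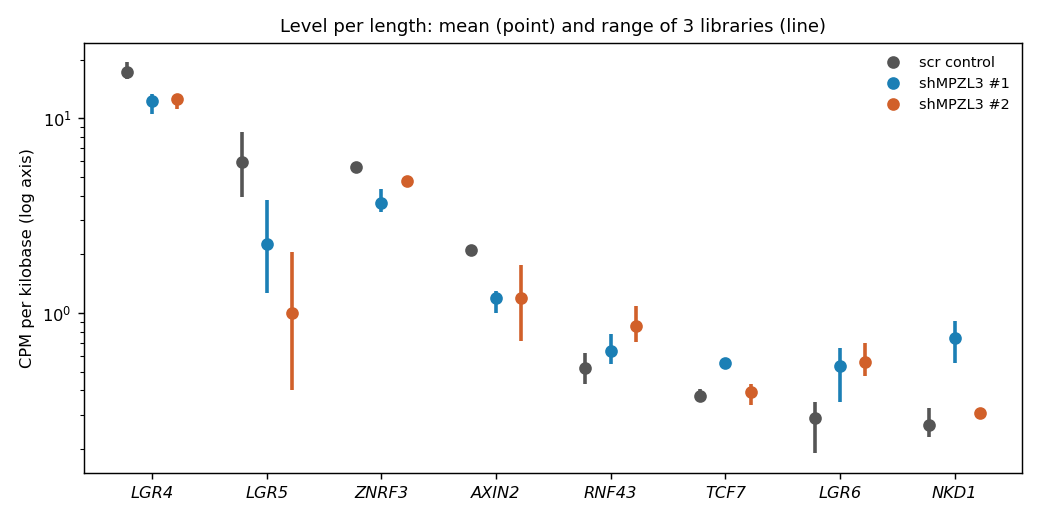
Level per length (CPM per kilobase of gene, log y axis) of the 8 genes in scr control, shMPZL3 #1 and shMPZL3 #2, with the mean of 3 libraries as a point and their range as a line. LGR5 moves from 5.94 in scr control, beside ZNRF3 at 5.65, to 0.994 with shMPZL3 #2, beside AXIN2 at 1.20.

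The plot of level per length puts the genes on a common scale. In scr control LGR4 was highest at 17.2 ± 1.85 CPM per kilobase (SD, n = 3), followed by LGR5 at 5.94 ± 2.35, ZNRF3 at 5.65 ± 0.249 and AXIN2 at 2.11 ± 0.0968. RNF43 (0.523 ± 0.0967), TCF7 (0.375 ± 0.0262), LGR6 (0.288 ± 0.0863) and NKD1 (0.266 ± 0.0527) were low, and LEF1 was at 0.00804. LGR5 and ZNRF3 overlapped, as did LGR6 and NKD1, while the other neighbors among the 8 were apart.

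With shMPZL3 #1, LGR5 (2.25 ± 1.35) stood at rank 3, overlapping ZNRF3 (3.67 ± 0.578) above it and AXIN2 (1.19 ± 0.172) below it, and NKD1 had moved to rank 5 at 0.742 ± 0.178. With shMPZL3 #2, LGR5 (0.994 ± 0.919) was at rank 4, overlapping AXIN2 (1.20 ± 0.527) and RNF43 (0.855 ± 0.198). The order of LGR4, LGR5, ZNRF3 and AXIN2 in scr control was the same with the length of the longest coding transcript (21.0, 6.76, 5.75 and 2.59), but TCF7, whose deposited length is 10063 bases against 3330 in that transcript, was then at 1.13, above RNF43 at 0.703.

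The genes whose profile lay nearest to that of LGR5 were sought among 11915 protein-coding genes, by the root mean square difference of log2 CPM centred on the mean of each gene over the 9 libraries. They were LMO3 (0.689), LIX1 (0.693), SCGB2A1 (0.705), METTL7A (0.708) and PEG10 (0.715), beside a root mean square of 1.38 for LGR5 about its own mean. None followed LGR5 closely, and the profile of LGR5 spanned 4.34 log2 units against 2.07 for LIX1 and 3.68 for SCGB2A1. Of the feedback genes AXIN2 was nearest at 1.00 (rank 40), followed by LGR4 at 1.19 (rank 315), and LGR6 lay far down the order at 1.77.

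LMO3 encodes a LIM-only transcriptional cofactor and PEG10 is an imprinted gene derived from a retrotransposon. LMO3 ranged over 837 to 993 normalized counts in the controls, 353 to 537 under shMPZL3 #1 and 156 to 293 under shMPZL3 #2. PEG10 had 4905 to 5095, 1914 to 2803 and 1115 to 1413. In both the groups did not overlap, and in both, as in LGR5, the shMPZL3 #2 mean was the lowest. The genes were chosen for a profile near that of LGR5, so this order follows from the choice. The groups of LIX1 were apart too. Controls and shMPZL3 #1 overlapped in SCGB2A1 (59.8 to 110 and 44.5 to 72.3) and in METTL7A (86.6 to 158 and 53.0 to 107).

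**Figure D4:**
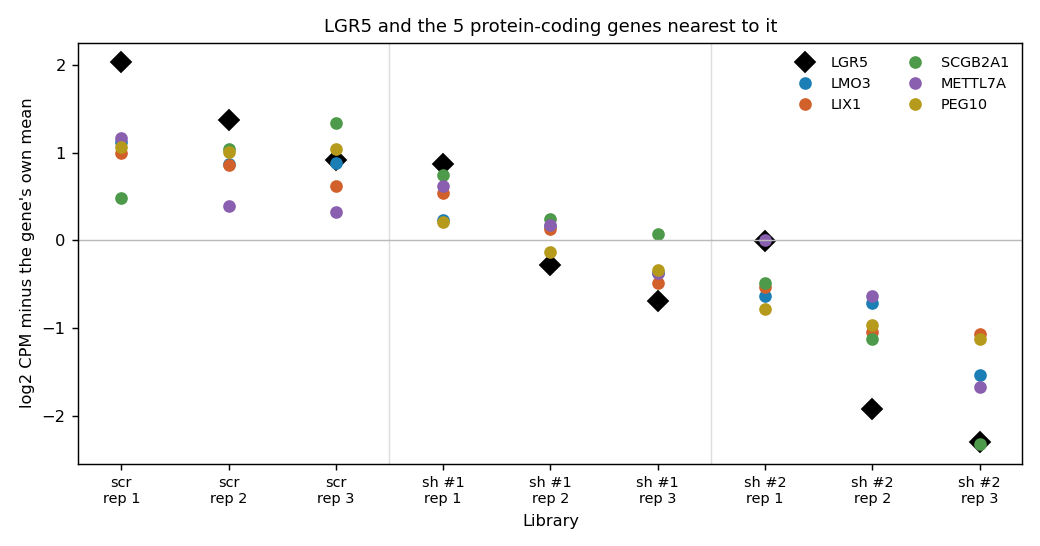
Log2 CPM minus the mean of the gene over the 9 libraries (y axis) for LGR5 (diamonds) and the 5 nearest genes (circles) in each library (x axis). All 6 genes are above 0 in the 3 scr control libraries and at or below 0.01 in the 3 shMPZL3 #2 libraries, and LGR5 has the widest range.

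The plot of centred profiles shows the spread of LGR5 within each group beside that of its nearest genes.

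The rest of the pathway was counted from lists of 93 further genes, of which 73 passed the filter. Grouped, 16 rose and 3 fell by the edgeR test, beside the 9.36% and 6.4% of all genes tested, with a median log2 difference of 0.17 against 0.02 over all genes. With shMPZL3 #1, 19 rose (26.0% of the 73, against 16.8% of all genes) and 11 fell (15.1%, against 15.3%). With shMPZL3 #2, 14 rose (19.2%, against 9.36%) and 5 fell (6.85%, against 5.8%), so the shares that fell were near those over all genes with either hairpin. The hairpins differed in 22, of which 9 were higher (12.3%) and 13 lower (17.8%) with shMPZL3 #2, against 7.56% in each direction. Without scr control replicate 1 the grouped count was 6, all higher, without replicate 2 it was 9 and without replicate 3 it was 11. All genes called grouped went from 2667 to 625, 962 and 1238 in turn. The count with shMPZL3 #2 was 12 without scr control replicate 1, where all genes called went from 2567 to 1398. The count between the hairpins was 14 without shMPZL3 #1 replicate 3, where all genes called went from 2559 to 1581. Of 16 named genes with a grouped call, 5 (PYGO1, NOTUM, MMP7, SOX9 and BAMBI) kept it whichever library was left out.

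Of the R-spondins, the ligands of LGR4, LGR5 and LGR6, only RSPO4 passed the filter. RSPO1, RSPO2 and RSPO3 had 1, 3 and 4 counts over all 9 libraries and were not tested. RSPO4 ranged over 44.3 to 95.7 normalized counts in the controls, 80.5 to 116 under shMPZL3 #1 and 103 to 150 under shMPZL3 #2, and its grouped difference of 0.60 ± 0.26 did not pass (edgeR adjusted p = 0.13).

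Of 19 Wnt ligands 12 were tested. In the grouped comparison 5 rose (41.7%, against 9.36% of all genes) and 1 fell (8.33%, against 6.4%). The largest rises were of WNT11 (log2 1.56 ± 0.42, edgeR adjusted p = 0.0245), WNT6 (1.13 ± 0.24, 0.00784) and WNT9A (1.11 ± 0.24, 0.00912). WNT5A, the best-known ligand of the beta-catenin-independent branch, was the 1 that fell (-0.55 ± 0.13, 0.0124). WNT6 and WNT9A lost the call without scr control replicate 1 (0.0649 and 0.0717), WNT5A without scr control replicate 1 or 2 (0.0794 and 0.053) and WNT11 without any 1 of them (0.0675 to 0.111). By single hairpin, WNT6, WNT9A and WNT5A passed with both. Their shMPZL3 #1 calls held whichever library was left out. With shMPZL3 #2, WNT5A lost the call without any 1 of 4 libraries (edgeR adjusted p up to 0.113). WNT9A lost it without either of 2 (up to 0.085) and WNT6 without 1 (0.0688). WNT11 passed with shMPZL3 #1 (2.05 ± 0.28, edgeR adjusted p = 6.15e-05) and not with shMPZL3 #2 (0.85 ± 0.29, 0.0557).

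WNT7A was the most abundant ligand per length in scr control, at 58.7 ± 3.78 CPM per kilobase, and its grouped difference of -0.30 ± 0.16 did not pass (edgeR adjusted p = 0.221). With shMPZL3 #2 WNT7A fell (-0.55 ± 0.13, 0.00881), a call that held whichever library was left out (up to 0.0467), and with shMPZL3 #1 it was at -0.09 ± 0.13 (0.629). WNT7B, at 14.6 ± 2.69, differed by 0.36 ± 0.13 (0.0668). Both Wnt release genes were tested and neither passed grouped, the acyltransferase PORCN at -0.60 ± 0.21 (0.0728, or 0.0189 without shMPZL3 #2 replicate 3 and 0.032 with DESeq2) and the Wnt carrier WLS at -0.09 ± 0.20 (0.789).

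The release genes did pass with single hairpins. PORCN had 2142, 1871 and 2013 normalized counts in scr control, 1092, 830 and 1017 with shMPZL3 #1, and 1657, 1388 and 1983 with shMPZL3 #2. It fell with shMPZL3 #1 (log2 -1.04 ± 0.13, edgeR adjusted p = 3.07e-05), under every setting (up to 0.000261), while with shMPZL3 #2, whose libraries overlapped the controls, it was at -0.26 ± 0.13 (0.191). WLS was called higher with shMPZL3 #1 (0.24 ± 0.09, 0.0479), a call lost without any 1 of 7 libraries, all but shMPZL3 #1 replicate 1 and shMPZL3 #2 replicate 3 (up to 0.185), and lower with shMPZL3 #2 (-0.53 ± 0.09, 0.000668).

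Of 16 receptors 15 were tested, 3 rose and 2 fell. The rises were of ROR2 (1.07 ± 0.33, edgeR adjusted p = 0.0417) and ROR1 (0.86 ± 0.21, 0.0183), receptors of the beta-catenin-independent branch, and of the co-receptor LRP5 (0.47 ± 0.14, 0.0384). The falls were of its relative LRP6 (-0.28 ± 0.09, 0.0472) and of RYK (-0.32 ± 0.10, 0.0373). ROR1 lost the call without scr control replicate 1 (0.10), and the other 4 each without any 1 scr control library, with adjusted p-values up to 0.173 for ROR2, 0.147 for LRP5, 0.172 for LRP6 and 0.177 for RYK. Single knockdown libraries ended these calls too. They were shMPZL3 #1 replicates 2 and 3 and shMPZL3 #2 replicates 1 and 2 for ROR2, shMPZL3 #1 replicates 1 and 3 for LRP5 and RYK, shMPZL3 #2 replicate 1 for LRP5 and replicate 3 for RYK, and all of shMPZL3 #1 with shMPZL3 #2 replicates 1 and 3 for LRP6. Each of these genes passed the edgeR test with shMPZL3 #1. With that hairpin ROR2 lost the call without any 1 of 4 libraries (adjusted p up to 0.165) and ROR1 without 1 (0.0926). With shMPZL3 #2 ROR1 passed (1.03 ± 0.20, adjusted p = 0.00252). ROR2 (1.07 ± 0.37, 0.0621), LRP5 (0.27 ± 0.11, 0.118), LRP6 (-0.21 ± 0.09, 0.127) and RYK (-0.24 ± 0.09, 0.10) did not pass with that hairpin.

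All 11 cytoplasmic transducers were tested and 0 were called grouped, where 9.36% of all genes rose and 6.4% fell. Their median was 0.02. CTNNB1, which encodes beta-catenin, had 8223 to 8599 normalized counts in scr control and 7203 to 8228 in the knockdown libraries, a difference of -0.12 ± 0.09 (edgeR adjusted p = 0.36). All 11 nuclear partners of beta-catenin were tested and 3 rose grouped (27.3%, against 9.36% of all genes). They were PYGO1 (0.88 ± 0.16, 0.00386), TLE2 (0.75 ± 0.21, 0.0297) and CTNNBIP1 (0.51 ± 0.13, 0.0215). PYGO1 is a coactivator, TLE2 a corepressor and CTNNBIP1 an inhibitor of beta-catenin. TLE2 lost the call without scr control replicate 1 or 2 (0.14 and 0.138) and CTNNBIP1 without any 1 scr control library (0.0591 to 0.129). All 3 passed the edgeR test with shMPZL3 #1. With shMPZL3 #2 PYGO1 passed (0.97 ± 0.17, 0.000791), and TLE2 (0.52 ± 0.20, 0.0832) and CTNNBIP1 (0.31 ± 0.10, 0.0502) did not.

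Of 15 secreted and surface inhibitors 6 were tested and 1 rose grouped (16.7%, against 9.36% of all genes). It was NOTUM, a secreted enzyme that inactivates Wnt ligands and is itself a beta-catenin target. In scr control NOTUM lay at 197 to 247 normalized counts, with shMPZL3 #1 at 349 to 469 and with shMPZL3 #2 at 404 to 515 (log2 0.99 ± 0.16, edgeR adjusted p = 0.00216). DKK3, the most abundant of the list, differed by -0.08 ± 0.18 (0.814).

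All 15 other target genes of beta-catenin were tested. Grouped, 4 rose (26.7%, against 9.36% of all genes) and 0 fell (against 6.4%) by the edgeR test. The hairpins gave other counts. Under shMPZL3 #1, 3 of the 15 were higher, near the 16.8% of all genes, and 5 were lower (33.3%, against 15.3%). Under shMPZL3 #2, 7 were higher (46.7%, against 9.36%) and 1 was lower (6.67%, against 5.8%). Between the hairpins 9 of the 15 differed. Of these, 7 were higher (46.7%) and 2 lower (13.3%) with shMPZL3 #2, against 7.56% of all genes in each direction. SOX9, a transcription factor of progenitor cells, lay at 278 to 286 normalized counts in the controls, at 857 to 1178 under shMPZL3 #1 and at 449 to 528 under shMPZL3 #2 (log2 1.38 ± 0.28, adjusted p = 0.00632). MMP7, a matrix metalloproteinase, rose by 1.33 ± 0.22 (0.00227) and BAMBI, a decoy receptor of the TGF-beta family, by 1.08 ± 0.19 (0.00311). These rises stood beside the fall of AXIN2, a target gene too. 

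CCND1, which encodes cyclin D1, had 6421, 6482 and 6339 normalized counts in scr control, 3341, 3267 and 2836 with shMPZL3 #1, and 5395, 5537 and 5521 with shMPZL3 #2, so the groups did not overlap. It fell with shMPZL3 #1 (log2 -1.03 ± 0.09, edgeR adjusted p = 2.64e-06), a call that held under every setting (up to 3.66e-05), and with shMPZL3 #2 it was at -0.23 ± 0.09 (0.108). Grouped, the difference of -0.57 ± 0.20 did not pass (0.0694), but it was called with the mean of the hairpins (3.34e-05), with no filter (0.00106), with DESeq2 (0.0281) and without any 1 of the shMPZL3 #2 libraries (0.0386 to 0.049).

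The other 4 target genes called lower with shMPZL3 #1 were MYC, EPHB2, FGF18 and LBH, a transcriptional cofactor, and JAG1, a Notch ligand, was the 1 called lower with shMPZL3 #2. MYC, EPHB2, LBH and JAG1 were named after their values were seen. LBH ranged over 5299 to 5756 normalized counts in the controls, 2742 to 3200 under shMPZL3 #1 and 5473 to 6230 under shMPZL3 #2, a log2 change of -0.91 ± 0.10 with shMPZL3 #1 (edgeR adjusted p = 8.66e-06). JAG1 ranged over 7996 to 8895, 8049 to 9383 and 5617 to 6179, a change of -0.53 ± 0.10 with shMPZL3 #2 (edgeR adjusted p = 0.00121). Both calls held whichever library was left out. FGF18 differed by -0.40 ± 0.12 with shMPZL3 #1 (edgeR adjusted p = 0.0179), and lost the call without scr control replicate 1 or 3 or shMPZL3 #1 replicate 2 or 3 (0.05 to 0.0843).

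**Figure D5:**
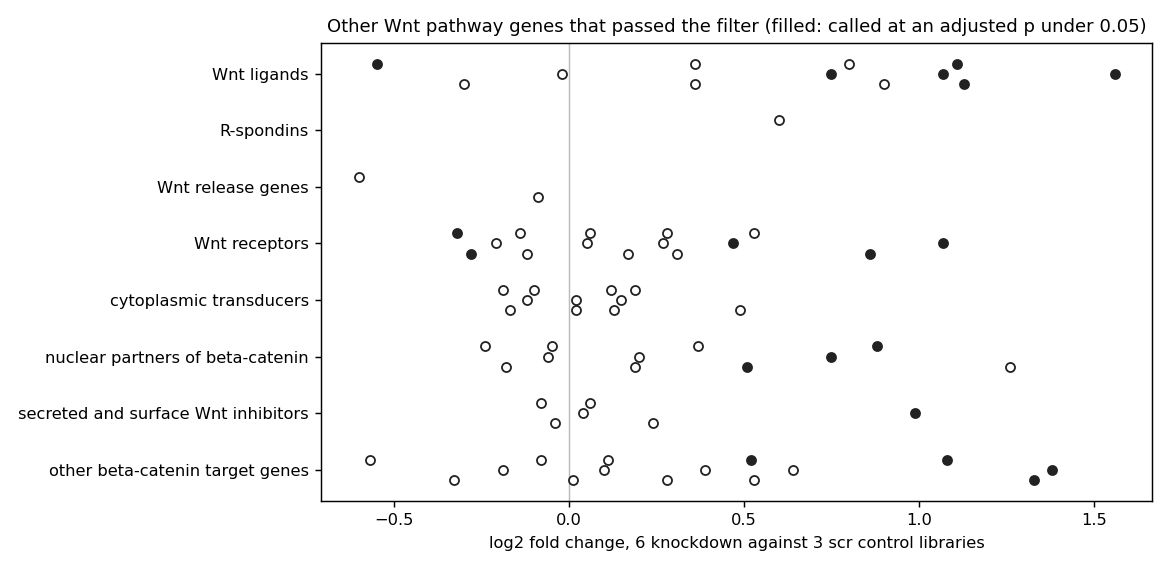
Grouped log2 fold change (x axis, 6 knockdown against 3 scr control libraries) of the 73 other Wnt pathway genes that passed the filter, 1 circle a gene, by list (y axis; the vertical offset within a list has no meaning). Filled circles were called at an adjusted p under 0.05. Calls lie mostly to the right among ligands and target genes, and the 11 cytoplasmic transducers have none.

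The plot by list shows 16 filled circles to the right of 0 and 3 to the left.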

How the data were processed

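The authors made poly-A selected, non-directional libraries from OVCAR4 cells and deposited raw read counts per gene, with replicates kept apart. The submitters' processing notes name HISAT2 2.0.5, featureCounts 1.5.0-p3 and hg38. The annotation is not given in the sources used here, but all 58735 genes matched GENCODE 29 in identifier, position and name. Per the file headers the table also gives a gene length, another unit, used for levels per length. OVCA433 libraries were not analysed here.

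The deposited counts were tested with edgeR 4.0.16 (filterByExpr, which kept 16928 genes, TMM factors of 0.983 to 1.03, two-sided quasi-likelihood test, Benjamini-Hochberg adjustment over all genes tested, threshold 0.05), in R 4.3.3. The 6 knockdown libraries were compared with the 3 scr control libraries without covariates, and the hairpins in 1 fit of 3 groups. The SE of a log2 fold change was derived from the test, as its absolute value divided by the square root of the F statistic. The intervals were built from that SE with the t quantile at the degrees of freedom of the test. Log2 CPM had a prior count of 2. Total counts of 15040102 to 27835841 leave counting error small beside replicate spread at well-counted genes, but not at genes with few counts, such as LGR6 and TCF7. Chi-square per gene between replicates was 3.08 to 23.2, so every library was counted as its own replicate.

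The genes and lists were chosen with earlier results of these data known. Named were the 10 genes, MPZL3, the R-spondins, CTNNB1, the 5 genes nearest to LGR5 and, per list, up to 3 genes highest per length in scr control and up to 3 with the largest called change in each direction. Alternatives were DESeq2 1.42.0, RLE and upper-quartile scaling, no filter, at least 10 counts in every library, a replicate block, the mean of the hairpins, leaving out each library, a prior count of 0.5 and, chosen after seeing the data, transcript length.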

Additional observations from a re-analysis of the deposited data

Results flagged for a closer look

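The results below differed between the shRNAs by the edgeR test of shMPZL3 #2 against shMPZL3 #1, as log2 differences (positive where shMPZL3 #2 was higher), each at an adjusted p under 0.05. No value among the 6 knockdown libraries stood apart from the others by Dixon's criterion in any of the 8 feedback genes that passed the filter.

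Among the feedback genes, ZNRF3 differed by 0.37 and NKD1 by -1.28. Of the ligands, WNT11 differed by -1.20, WNT6 by -0.62 and WNT7A by -0.45. The release genes went apart in opposite ways, with PORCN at 0.78 and WLS at -0.77.

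Of the receptors and transducers, PTK7, a co-receptor of planar cell polarity, differed by -0.47, LRP5 by -0.37 and DVL3, a Dishevelled protein, by -0.33. CTNNBIP1 differed by -0.37 and DKK3 by -0.54. Of the target genes, FGF18 differed by 0.58, CCND1 by 0.80, SOX9 by -0.97, MYC by 0.91, EPHB2 by 0.91, LBH by 0.99 and JAG1 by -0.61.

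The differences of NKD1, WNT11, WLS, PORCN, PTK7, FGF18, CCND1, SOX9, MYC, EPHB2, LBH and JAG1 passed the test whichever library was left out. The WNT7A call was lost without shMPZL3 #1 replicate 1 or 3 or shMPZL3 #2 replicate 2 or 3 (adjusted p from 0.0558 to 0.0928). WNT6 lost it without shMPZL3 #1 replicate 2 or 3 or any 1 of the shMPZL3 #2 libraries (0.0513 to 0.0816). LRP5 lost it without scr control replicate 2 or 3, shMPZL3 #1 replicate 1 or 3 or shMPZL3 #2 replicate 2 or 3 (0.0544 to 0.124). DVL3 lost it without scr control replicate 2, shMPZL3 #1 replicate 3 or shMPZL3 #2 replicate 2 or 3 (0.0528 to 0.0957). CTNNBIP1 lost it without shMPZL3 #1 replicate 3 (0.0793) or shMPZL3 #2 replicate 1 (0.0948), and DKK3 without shMPZL3 #1 replicate 2 or 3 or shMPZL3 #2 replicate 1 (0.0535 to 0.0836). ZNRF3 lost it without any 1 library but shMPZL3 #1 replicate 1 (0.051 to 0.164).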

How the results depend on the processing

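Of the settings that kept all libraries, DESeq2 raised the feedback genes called grouped from 3 to 5 (2 higher, 3 lower), as did the mean of the hairpins (5), which also raised all genes called from 2667 to 4677 (2479 higher, 2198 lower). RLE and upper-quartile scaling lowered the feedback genes called between the hairpins from 2 to 1 each, through ZNRF3 (adjusted p = 0.0513 and 0.0587). The direction of AXIN2 between the hairpins turned under upper-quartile scaling (-0.02) and with at least 10 counts in every library (-0.01). The cause was not tested. With no filter NKD1 was called grouped (adjusted p = 0.00234), TCF7 with shMPZL3 #1 (0.112) and ZNRF3 between the hairpins (0.0614) were not. With at least 10 counts in every library ZNRF3 grouped was not called (0.0522), and LGR6 was, grouped (0.0423) and with shMPZL3 #1 (0.0413).

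Leaving out each library, the counts called ranged from 0 to 3 feedback genes, 6 to 19 pathway genes and 625 to 3187 genes grouped, 3 to 5, 25 to 34 and 3695 to 5817 with shMPZL3 #1, 0 to 4, 12 to 24 and 1366 to 3056 with shMPZL3 #2, and 1 to 2, 14 to 22 and 1469 to 2953 between the hairpins. The grouped counts were lowest without scr control replicate 1. Signs turned at uncalled values near 0, namely grouped WLS (-0.18 to 0.01), FZD6 (-0.02 to 0.11), DKK3 (-0.17 to 0.03), MYC (-0.01 to 0.22) and EPHB2 (-0.02 to 0.21), TCF7 with shMPZL3 #2 (0.00 to 0.16), and LGR4 (-0.07 to 0.10), LGR6 (-0.15 to 0.26) and AXIN2 (-0.36 to 0.27) between the hairpins. Grouped FGF18 (-0.18 to 0.00) turned below the second decimal.

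The replicate numbers were not used as pairs in the main fit, and whether they mark pairs was not settled. Of 9 same-number pairs, 3 had deviations that correlated above 0.1 (-0.001 to 0.218), and 5 of 9 libraries correlated best with their own number. With the replicate block, all genes called went from 2567 to 3680 with shMPZL3 #2 and from 2559 to 3823 between the hairpins. Grouped they went from 2667 to 2424, and with shMPZL3 #1 from 5424 to 6355. Between the hairpins the same-number pairs were at 0.137, 0.218 and 0.097, and the others at most at 0.004. With the replicate block, pathway genes called with shMPZL3 #2 went from 19 to 30 (22 higher, 8 lower), ZNRF3 grouped lost its call (adjusted p = 0.0595), LGR5 between the hairpins gained one (-1.30, 3.75e-05) and AXIN2 between them was at -0.02. No other call of the feedback genes changed with the block.

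Genes at few counts, such as LGR6, TCF7, LEF1, DKK1 and ROR2, are limited by depth. With 3 libraries a group, calls near the threshold rest on single libraries.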

Other observations

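Of the 73 other pathway genes tested, 3 (4.11%) were called in opposite directions by the hairpins against the same controls, as were 57 (0.337%) of all genes tested. WLS, the carrier that brings Wnt ligands to the surface, was named by the rule for the lists, and MYC and EPHB2 were named after their values were seen. WLS ranged over 7882 to 8426 normalized counts in the controls, 9380 to 9967 under shMPZL3 #1 and 5327 to 6017 under shMPZL3 #2, with log2 changes of 0.24 ± 0.09 (edgeR adjusted p = 0.0479) and -0.53 ± 0.09 (0.000668). The rise of WLS was lost without any 1 of 7 libraries, all but shMPZL3 #1 replicate 1 and shMPZL3 #2 replicate 3 (adjusted p up to 0.185).

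MYC, a growth-promoting transcription factor, ranged over 1278 to 1459 normalized counts in the controls, 925 to 1109 under shMPZL3 #1 and 1772 to 2105 under shMPZL3 #2, so the groups did not overlap. The log2 changes were -0.42 ± 0.11 (edgeR adjusted p = 0.00701) and 0.50 ± 0.11 (0.0041), and both calls held whichever library was left out. EPHB2, an ephrin receptor and beta-catenin target of the intestine, had 636 to 683, 422 to 587 and 851 to 991, with changes of -0.43 ± 0.13 (edgeR adjusted p = 0.0169) and 0.48 ± 0.13 (0.0157). The EPHB2 call with shMPZL3 #1 was lost without scr control replicate 2 or shMPZL3 #1 replicate 2 or 3 (adjusted p up to 0.0699), and that with shMPZL3 #2 without scr control replicate 1 or 3 or shMPZL3 #2 replicate 1 (up to 0.0752).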
